A study of Mus musculus with 18 samples.

Results

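The 45 genes described here copy DNA and supply its building blocks: they license and fire replication origins, unwind and copy the strands, make deoxynucleotides and rebuild chromatin behind the fork. They were taken by gene symbol from a spleen expression table of 19326 rows, and all 45 were found there. The 18 libraries came from spleen RNA of 10-week-old ICR mice, which are outbred, with 3 libraries per group. The 6 groups were control, AOS at 10 mg/kg, high fat diet (HFD), HFD with AOS at 10 mg/kg (HFD+AOS), HFD with FMT labelled AOS10mg/kg (HFD+AOS-FMT) and HFD with FMT labelled control (HFD+control-FMT). AOS is read here as alginate oligosaccharide and FMT as faecal microbiota transplantation, terms the labels do not spell out. The labels give no sex, route, dosing schedule or day of collection, and nothing in them ties each library to its own animal, so p-values measure only the spread between these libraries. The series concerns the effect of the AOS-labelled FMT on spleens under the diet.

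Replication origins are loaded in G1, when the origin recognition complex, Cdc6 and Cdt1 place a ring of Mcm2 to Mcm7 on DNA. In S phase the Dbf4-dependent kinase Cdc7 and the factors Cdc45 and GINS turn that ring into a helicase, the polymerases and the clamp follow, and ribonucleotide reductase and thymidylate synthase feed deoxynucleotides to the fork. Transcription of many of these genes is driven by E2F factors at the entry into S phase. The adult mouse spleen is a site of red cell formation as well as of lymphocyte division, so it holds several kinds of dividing cell.

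The start regions of 5 of the 9 genes in which E2F-type words were found are shown. The words searched were TTTCCCGC, TTTCGCGC, TTTGCCGC and TTTGGCGC, on both strands, in the 250 bases before each RefSeq start on GRCm38.p6. Neighbouring matches can overlap. Capitals mark the matches, and each stretch reads 5′ to 3′ on the gene's strand. Those of Cdc6 (chr11:98907982-98908150, plus strand), Mcm5 (chr8:75109330-75109393, plus), Mcm6 (chr1:128359719-128359841, minus) and Pola1 (chrX:93632260-93632319, minus) lie outside annotated exons. That of Orc1 (chr4:108579416-108579445, plus) runs into its own first exon. Orc1 begins at 108579423 in GENCODE, so its match lies inside the gene. The Cdc6 stretch lies before the RefSeq start but inside the gene in GENCODE, which begins at 98907801, after its first annotated exon.
Cdc6: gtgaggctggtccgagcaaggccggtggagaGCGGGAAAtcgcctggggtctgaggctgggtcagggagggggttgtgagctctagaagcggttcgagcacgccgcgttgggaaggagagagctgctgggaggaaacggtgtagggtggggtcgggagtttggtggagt
Mcm5: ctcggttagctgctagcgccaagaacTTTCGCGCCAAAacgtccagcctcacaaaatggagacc
Mcm6: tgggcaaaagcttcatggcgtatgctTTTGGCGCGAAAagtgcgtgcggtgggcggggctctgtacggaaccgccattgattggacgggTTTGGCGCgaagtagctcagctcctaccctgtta
Pola1: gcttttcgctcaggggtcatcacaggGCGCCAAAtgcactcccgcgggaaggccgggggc
Orc1: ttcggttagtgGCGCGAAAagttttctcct

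A window was at hand for 37 of the 45 genes, and 9 of them (24.3%) held at least 1 such word: Cdc6, Orc1, Mcm5, Mcm6, Mcm7, Gins3, Pola1, Rfc3 and Uhrf1. Counted over windows, the words were in 20.5% of the 44 windows of these genes, in 3.08% of those of the other genes tested and in 1.86% of all 32851 windows. The CCAAT box (CCAAT, both strands) was in 54.5% of the 44 windows, 35.2% of those of other tested genes and 33.8% of all. The mitotic CHR element (TTTGAA, both strands) was in 13.6%, which lies between 11.1% for other tested genes and 16.0% for all, and in 7 of 14 mitosis marker genes. Median GC content was 61.2% in the windows of these genes, 59.2% in those of other tested genes and 52.4% in all windows. The 9 genes with an E2F-type word had a median log2 fold change on the diet of −0.46 (−0.77 to −0.16) and the 28 without had −0.43 (−0.72 to 0.1). A match is a description of letters, not evidence of binding.

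Levels are FPKM, fragments scaled to transcript length and to library size. Column totals ran from 627964 to 831448 FPKM, haemoglobin transcripts took 10.8% to 34.4% of them, and read depth is unknown. Libraries of the same group stood apart. Control replicate 1 had all 45 genes above their own median over the 18 libraries, control replicate 2 had 40 and control replicate 3 only 5. HFD+AOS replicates 1 and 2 had 45 and 43, HFD+AOS replicate 3 had 0. The highest value of 38 genes was in control replicate 1, and the lowest was in HFD replicate 2 for 17 genes and in HFD replicate 3 for 13. The AOS libraries had 40, 40 and 29 and those of HFD+AOS-FMT 38, 21 and 19. Those of HFD had 18, 2 and 2, and those of HFD+control-FMT 14, 4 and 0.

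**Figure D1:**
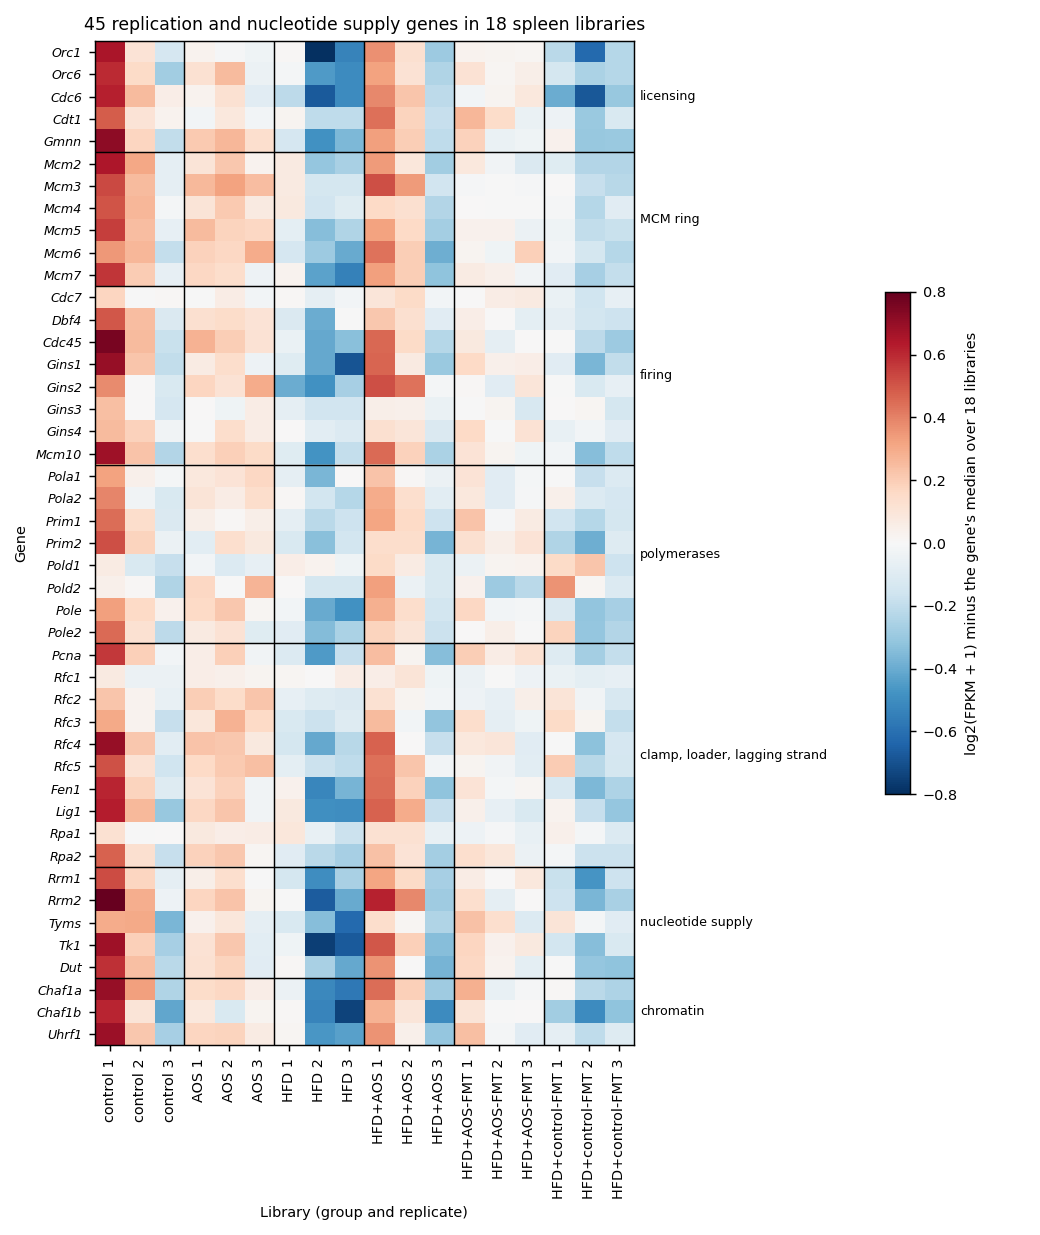
Heat map of log2(FPKM + 1) of the 45 genes (rows, grouped by role) in 18 libraries (columns, grouped by treatment), each minus the gene's median over the 18 libraries. Control replicate 1 is high for all 45 genes, and HFD replicates 2 and 3 are above the median for only 2 genes each.

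The effect of the diet alone is the contrast of HFD and control. On HFD 43 of the 45 genes had lower estimates than in controls, against 31.5% of all genes tested. The median log2 fold change over the 45 was −0.44, against 0.101 over all 12969 genes tested, and all 45 lay below that all-gene median. Cdc6 fell, and it alone of the 45 passed an adjusted p of 0.05, when 1.30% of all genes tested were called lower. At an unadjusted p under 0.05, 34 of 45 were lower, against 9.08% of all genes. In 10 genes every HFD library was below every control library (Cdc6, Cdt1, Mcm5, Gins2, Prim2, Pole, Pcna, Rfc2, Rfc4 and Rrm1), against 5.44% of all genes. In bulk RNA, fewer dividing cells and less RNA per dividing cell cannot be told apart.

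How many genes passed changed with the libraries used. Without control replicate 1 the median was −0.26 and 0 of the 45 or of any gene were called. Without control replicate 3 it was −0.58 and 36 were called, when 1289 of 13038 genes tested were called lower. Without HFD replicate 1, 11 were called, when 585 of 12981 genes tested were called lower. Without HFD+AOS replicate 3, which enters through the pooled spread, 7 were called, when 289 of 12964 were called lower. Scaling by median ratios, which moved the all-gene median from 0.101 to −0.001, gave a median of −0.55 with all 45 lower. Of the 45 and of all genes tested, 0 were called with it.

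Licensing genes stood lower on the diet in 5 of 5 cases, with a median of −0.56. Cdc6, the loader that helps place the MCM ring on origins (chr11:98907801-98923940, plus strand), was at 43.94, 33.84 and 29.29 FPKM in controls and at 24.29, 17.3 and 19.59 on HFD. It stood at 28.72, 30.82 and 26.47 with AOS, at 37.09, 33.01 and 24.23 with HFD+AOS, at 27.79, 28.61 and 30 with HFD+AOS-FMT and at 21.14, 17.22 and 22.71 with HFD+control-FMT. All HFD and HFD+control-FMT libraries were below all control and all AOS libraries. The HFD mean was 20.4 ± 3.56 FPKM against 35.7 ± 7.5 in controls (SD, n = 3), a log2 fold change of −0.77 ± 0.16 (SE, limma, adjusted p = 0.0443). This call held in only 8 of 25 alternatives, over which the adjusted p ran from 0.00589 to 0.339. It was lost without the filter on low values (adjusted p = 0.0644), with median ratios (0.059), with totals free of haemoglobin (0.0575) and with only the groups compared in the fit (0.339). It was also lost without any 1 of 13 of the 18 libraries: control replicate 1 (0.21) or 2, HFD replicate 2 or 3, HFD+AOS replicate 2, HFD+control-FMT replicate 1 or 2, or any AOS or HFD+AOS-FMT library.

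Cdt1, the partner of Cdc6 in loading, was at 51.21, 39.2 and 37.06 FPKM in controls and at 36.8, 31.46 and 31.36 on HFD. The groups did not overlap, and the log2 fold change of −0.34 ± 0.14 SE did not pass (limma, adjusted p = 0.146). Orc1, the largest subunit of the origin recognition complex, spanned 4.07 to 13.23 FPKM, the widest relative range among the 45 (3.25-fold), at −0.66 ± 0.22 SE. Orc6 and the Cdt1 inhibitor geminin (Gmnn) had estimates of −0.48 and −0.56. The ratio of Cdc6 to Cdt1, a pair chosen after its values were seen, was 0.79 to 0.86 in controls, 0.55 to 0.66 on HFD and 0.59 to 0.68 with HFD+control-FMT. It was 0.74 to 0.8 with AOS, 0.75 to 0.8 with HFD+AOS and 0.63 to 0.86 with HFD+AOS-FMT.

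All 6 MCM ring genes were lower on the diet and 0 passed, with a median of −0.43 and a range of −0.55 to −0.31. Mcm5 was at 77.15, 62.26 and 49.92 FPKM in controls and at 49.52, 41.14 and 44.11 on HFD, so the groups were separated by less than 1 FPKM (−0.46 ± 0.14 SE, limma, adjusted p = 0.0713). Mcm7 was at 134.62, 104.27 and 86.09 in controls and at 92.27, 66.96 and 61.84 on HFD, and the groups overlapped. The ring contains each of its 6 subunits once, and transcript levels, which FPKM scales to length, were of the same order. Mcm7 was the most abundant in 17 of 18 libraries and Mcm4 the least in 16, and the highest subunit stood at 1.41 to 2.15 times the lowest within a library.

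Of the 8 firing genes all were lower on HFD and 0 passed, with a median of −0.42. Gins2, a subunit of the 4-part GINS complex that joins Cdc45 and the MCM ring, was at 18.12, 13.72 and 12.51 FPKM in controls and at 10.2, 9.51 and 11.26 on HFD. These 3 HFD values were the lowest of the 18 libraries. The log2 fold change was −0.47 ± 0.13 SE (limma, adjusted p = 0.061). The other GINS genes did not move alike: Gins1 had an estimate of −0.64 ± 0.21, Gins3 of −0.16 ± 0.09 and Gins4 of −0.2 ± 0.08. Gins4 was the most abundant firing gene, at 37.52, 35.79 and 30.72 FPKM in controls and 31.44, 29.57 and 29.0 on HFD. Cdc45 and Mcm10, which help activate the helicase, stood at −0.54 and −0.48. The kinase gene Cdc7 stayed between 12.67 and 16.17 FPKM in all 18 libraries (−0.09 ± 0.07 SE), while its activator Dbf4 ranged from 15.53 to 29.68 (−0.38 ± 0.13 SE).

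Of the 8 polymerase genes 7 were lower and 1 higher on HFD, and 0 passed. Pole, the catalytic subunit of polymerase epsilon on the leading strand, was at 9.3, 8.15 and 7.39 FPKM in controls and at 7.07, 5.21 and 4.87 on HFD. The groups did not overlap (−0.48 ± 0.13 SE, limma, adjusted p = 0.0538). Prim1, the catalytic primase subunit, was at 39.61, 31.94 and 26.54 in controls and at 27.44, 24.67 and 25.66 on HFD, which overlap. Prim2, the other primase subunit, stood at −0.42, and Pola1 and Pola2 of polymerase alpha at −0.26 and −0.2.

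Polymerase delta copies the lagging strand. Its catalytic subunit Pold1, the 1 polymerase gene with an estimate above 0, was at 21.2, 18.49 and 17.69 FPKM in controls and at 21.06, 20.61 and 19.71 on HFD (0.1 ± 0.1 SE, limma, adjusted p = 0.517), and the accessory subunit Pold2 had an estimate of −0.03 ± 0.14 SE. The sign of Pold1 turned negative with median ratios. The ratio of Pold1 to Pole, chosen after its values were seen, was 2.27 to 2.39 in controls and 2.19 to 2.65 with AOS, and 2.98 to 4.05 on HFD and 3.07 to 4.23 with HFD+control-FMT. It was 2.51 to 2.89 with HFD+AOS and 2.38 to 2.9 with HFD+AOS-FMT.

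Among 10 genes of the clamp, its loader and lagging strand processing, 9 were lower on HFD and 0 passed. Pcna, the sliding clamp and the most abundant of all 45 transcripts, was at 499.66, 383.71 and 331.97 FPKM in controls and at 312.64, 245.39 and 296.64 on HFD. The groups did not overlap, and the estimate was −0.49 ± 0.15 SE (limma, adjusted p = 0.0667). The clamp loader genes spread widely: Rfc4 stood at −0.53, Rfc5 at −0.31, Rfc3 at −0.18, Rfc2 at −0.16 and the large subunit Rfc1 at 0.03 ± 0.05 SE. Rfc1 was the flattest of the 45, between 21.7 and 24.77 FPKM in all libraries, and its estimate was below 0 with median ratios. Fen1 and Lig1, which trim and seal Okazaki fragments, stood at −0.52 and −0.5. Of the single-strand binding genes, Rpa1 had an estimate of −0.09 and Rpa2 of −0.33.

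All 5 nucleotide supply genes were lower on HFD and 0 passed, with a median of −0.51. Ribonucleotide reductase makes deoxynucleotides with a large subunit, Rrm1, and a small subunit made in S phase, Rrm2. Rrm2 was at 145.06, 99.87 and 78.97 FPKM in controls and at 81.23, 50.86 and 61.18 on HFD, with HFD replicate 1 above control replicate 3 (−0.72 ± 0.22 SE, limma, adjusted p = 0.073). Rrm1 was at 78.48, 61.5 and 51.82 in controls and at 49.32, 38.24 and 45.26 on HFD, without overlap (−0.51 ± 0.15 SE, limma, adjusted p = 0.0657). The thymidine kinase Tk1, thymidylate synthase Tyms and the dUTPase gene Dut had estimates of −0.69, −0.44 and −0.42.

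The 3 chromatin genes were lower on HFD with estimates of −0.64 to −0.51 and 0 passed. Chaf1a, the large subunit of the histone chaperone CAF-1, was at 23.67, 18.1 and 11.9 FPKM in controls and at 13.75, 9.67 and 9.26 on HFD (−0.64 ± 0.21 SE, limma, adjusted p = 0.0849). Uhrf1, which guides DNA methylation to new strands, was at 69.64, 50.07 and 35.6 in controls and at 43.45, 30.84 and 31.54 on HFD. In both genes control replicate 3 lay inside the HFD range.

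**Figure D2:**
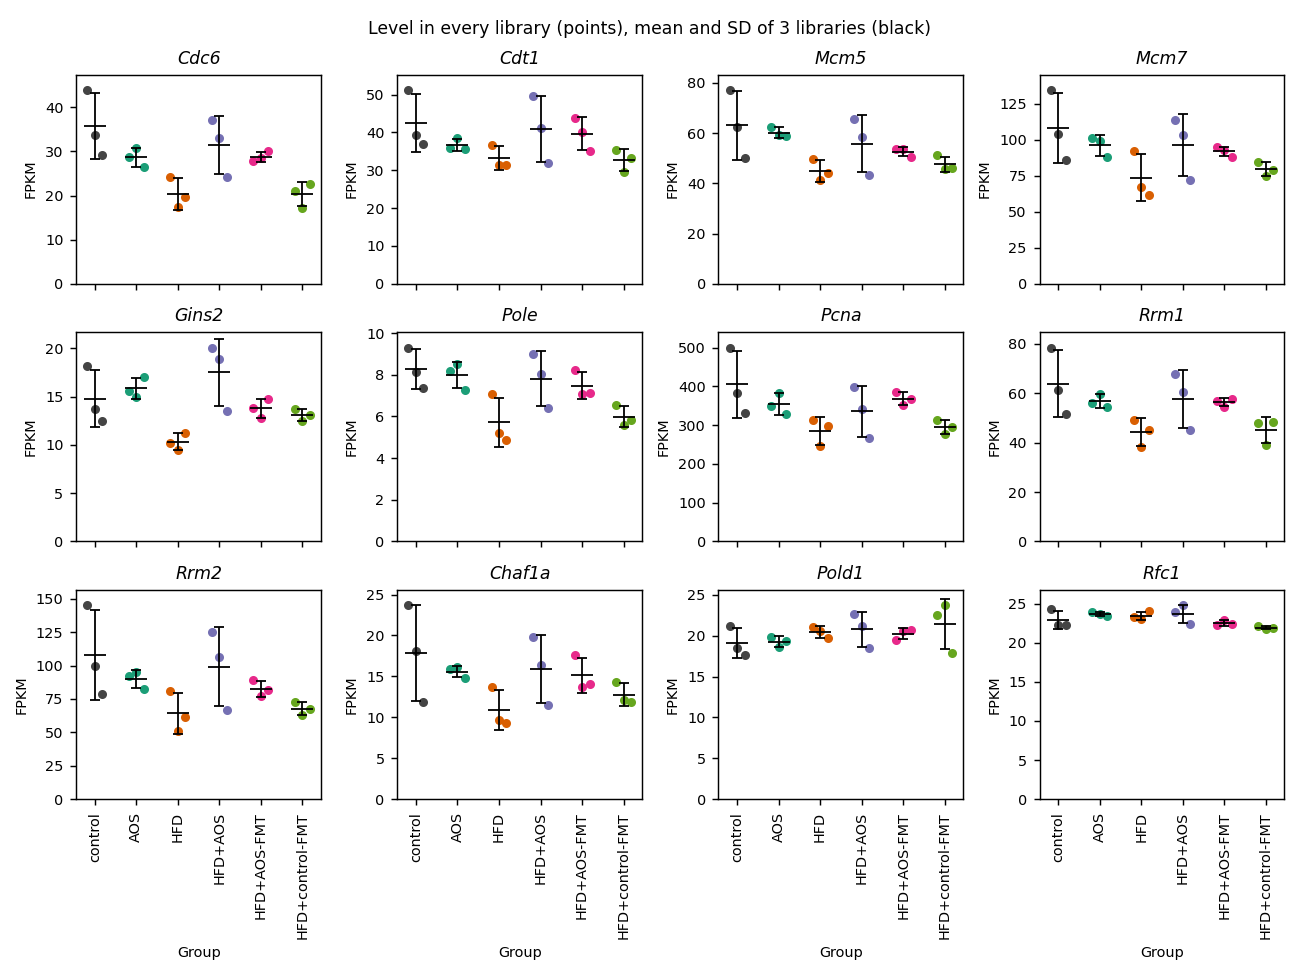
FPKM (vertical axes, from 0) of 12 of the 45 genes in the 6 groups (horizontal axes), with points for the 3 libraries, a black dash for the mean and bars for the SD. Cdc6 is at or below 24.29 FPKM in all HFD and HFD+control-FMT libraries and at or above 29.29 in controls, while Pold1 and Rfc1 stay level.

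HFD+control-FMT stood near HFD. Against HFD, 37 of 45 genes were higher (all genes 44.4%) with a median of 0.07, and 0 passed when 0.0154% of all genes were called higher (limma, smallest adjusted p = 0.999). At an unadjusted p under 0.05, 2 were higher, against 2.69% of all genes tested. Gins2 and Tyms were above HFD in every library, against 4.57% of all genes, and Rfc1 was below in every library, against 5.59%. Gins2 was at 13.71, 12.51 and 13.04 FPKM (0.32 ± 0.13 SE), and Cdc6 had an estimate of 0.0 ± 0.16 SE.

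Against control, HFD+control-FMT had 43 of 45 genes lower (all genes 34.2%), with a median of −0.36 and an all-gene median of 0.08. Cdc6 fell by 0.77 on the log2 scale (± 0.16 SE, limma, adjusted p = 0.0272), the only one of 45 called, when 1.94% of all genes were called lower. The call was lost with only the groups compared in the fit (adjusted p = 0.195) and without control replicate 1 (0.115), HFD+control-FMT replicate 1 or HFD+control-FMT replicate 2. At an unadjusted p under 0.05, 24 genes were lower, against 9.41% of all genes. In 14 genes the groups did not overlap, against 8.29% of all genes: Orc1, Cdc6, Cdt1, Mcm2, Mcm7, Cdc7, Prim1, Prim2, Pole, Pcna, Rfc1, Fen1, Rrm1 and Rrm2. Pold1 and Pold2 had estimates of 0.15 each, and neither passed. Without control replicate 1 the median was −0.19 with 0 called. Without control replicate 3 it was −0.53 with 28 called, when 1133 of 13038 genes tested were called lower.

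AOS given on the diet went with higher values of all 45 genes than HFD (all genes 41.9%), with a median of 0.30 and an all-gene median of −0.034, and 0 of the 45 or of any gene passed as higher (limma, smallest adjusted p = 0.103 among the 45). At an unadjusted p under 0.05, 13 were higher, against 6.16% of all genes. In Gins2, Gins3, Rfc2 and Rfc5 every HFD+AOS library was above every HFD library, against 6.42% of all genes, and with median ratios 1 gene was, against 8.05%. Gins2 was at 20.05, 18.91 and 13.54 FPKM against 10.2, 9.51 and 11.26 on HFD. Its log2 fold change was 0.69 ± 0.13 SE (limma, adjusted p = 0.103). With the replicate number as a block, Gins2 passed (adjusted p = 0.0467), as it did without control replicate 1 (0.0374) or without HFD+AOS replicate 3 (0.0375). Cdc6 had an estimate of 0.59 ± 0.16 SE, and Tk1 and Rrm2 of 0.6 and 0.59, with 1 low library, HFD+AOS replicate 3, inside the HFD range in each.

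Against control, HFD+AOS had a median of −0.1 with 37 of 45 lower (all genes 39.8%). By limma 0 were called, against 0.285% of all genes, and 0 were lower at an unadjusted p under 0.05, against 5.89%. The groups overlapped in all 45, when 4.78% of all genes were lower without overlap. AOS without the diet had a median of −0.07 against control, with 32 lower (all genes 37.6%) and 13 higher. By limma 0 of the 45 and of all genes tested passed adjusted (smallest 0.422 among the 45). At an unadjusted p under 0.05, 0 of the 45 were lower, against 5.23% of all genes. Without overlap 0 were lower, against 5.10%. Cdc6 in the AOS group had an estimate of −0.29 ± 0.16 SE. These medians changed sign without control replicate 1, to 0.07 for HFD+AOS and 0.08 for AOS, and that of HFD+AOS also without HFD+AOS replicate 3 (0.04). The interaction of AOS and diet, which asks whether AOS acts differently on the 2 diets, was positive for 42 of 45 genes, against 34.8% of all genes, with a median of 0.39 (all genes −0.091). Of the 45 and of all genes tested, 0 passed (limma, smallest adjusted p = 0.221 among the 45, Cdc6 at 0.88 ± 0.23 SE). At an unadjusted p under 0.05, 9 of the 45 were positive, against 5.81% of all genes.

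HFD+AOS-FMT lay between HFD and control by the mean log2 level of the 45 genes. Against HFD, 42 of 45 genes were higher (all genes 32.5%), with a median of 0.26 and an all-gene median of −0.068. Of the 45 and of all genes tested, 0 passed (limma, smallest adjusted p = 0.264 among the 45, Cdc6). At an unadjusted p under 0.05, 9 were higher, against 4.56% of all genes. In 20 genes every HFD+AOS-FMT library was above every HFD library, against 6.25% of all genes, and in Rfc1 every library was below, against 16.7%. The largest estimates were those of Tk1 (0.58 ± 0.23 SE), Cdc6 (0.49 ± 0.16), Gins1 (0.49 ± 0.21) and Orc1 (0.48 ± 0.22). Tk1 was at 58.27, 52.98 and 54.64 FPKM against 50.36, 30.24 and 32.03. The MCM genes had smaller ones, from 0.06 to 0.34.

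The AOS-labelled and control-labelled FMT groups were also compared directly, both on the high fat diet. HFD+AOS-FMT was higher than HFD+control-FMT in 41 of 45 genes (all genes 34.7%), with a median of 0.17 and an all-gene median of −0.051. Of the 45, 0 passed (limma, smallest adjusted p = 0.362, Cdc6). Of all genes tested, 0 were called higher and 1 lower. At an unadjusted p under 0.05, 3 were higher, against 3.86% of all genes. In 18 genes the groups did not overlap, against 7.80% of all genes, and in 27 with median ratios (12.1% of all genes) or totals free of haemoglobin (8.55%). The 18 were Orc1, Orc6, Cdc6, Mcm4, Mcm7, Cdc7, Gins1, Gins4, Prim1, Prim2, Pole, Pcna, Rfc1, Fen1, Rrm1, Rrm2, Tk1 and Chaf1b. Cdc6 was at 27.79, 28.61 and 30 FPKM against 21.14, 17.22 and 22.71 (0.49 ± 0.16 SE). Pcna was at 385.74, 351.46 and 367.02 against 313.32, 278.37 and 294.96 (0.32 ± 0.15 SE). Pold2 had the estimate farthest in the other direction, −0.24 ± 0.14 SE. Against control, HFD+AOS-FMT had a median of −0.12, with 43 lower (all genes 43.6%). By limma 0 of the 45 and of all genes tested were called. At an unadjusted p under 0.05, 0 of the 45 were lower, against 5.07% of all genes. Only Rpa1 was below control in every library, against 5.79% of all genes, and this median was 0.02 without control replicate 1.

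**Figure D3:**
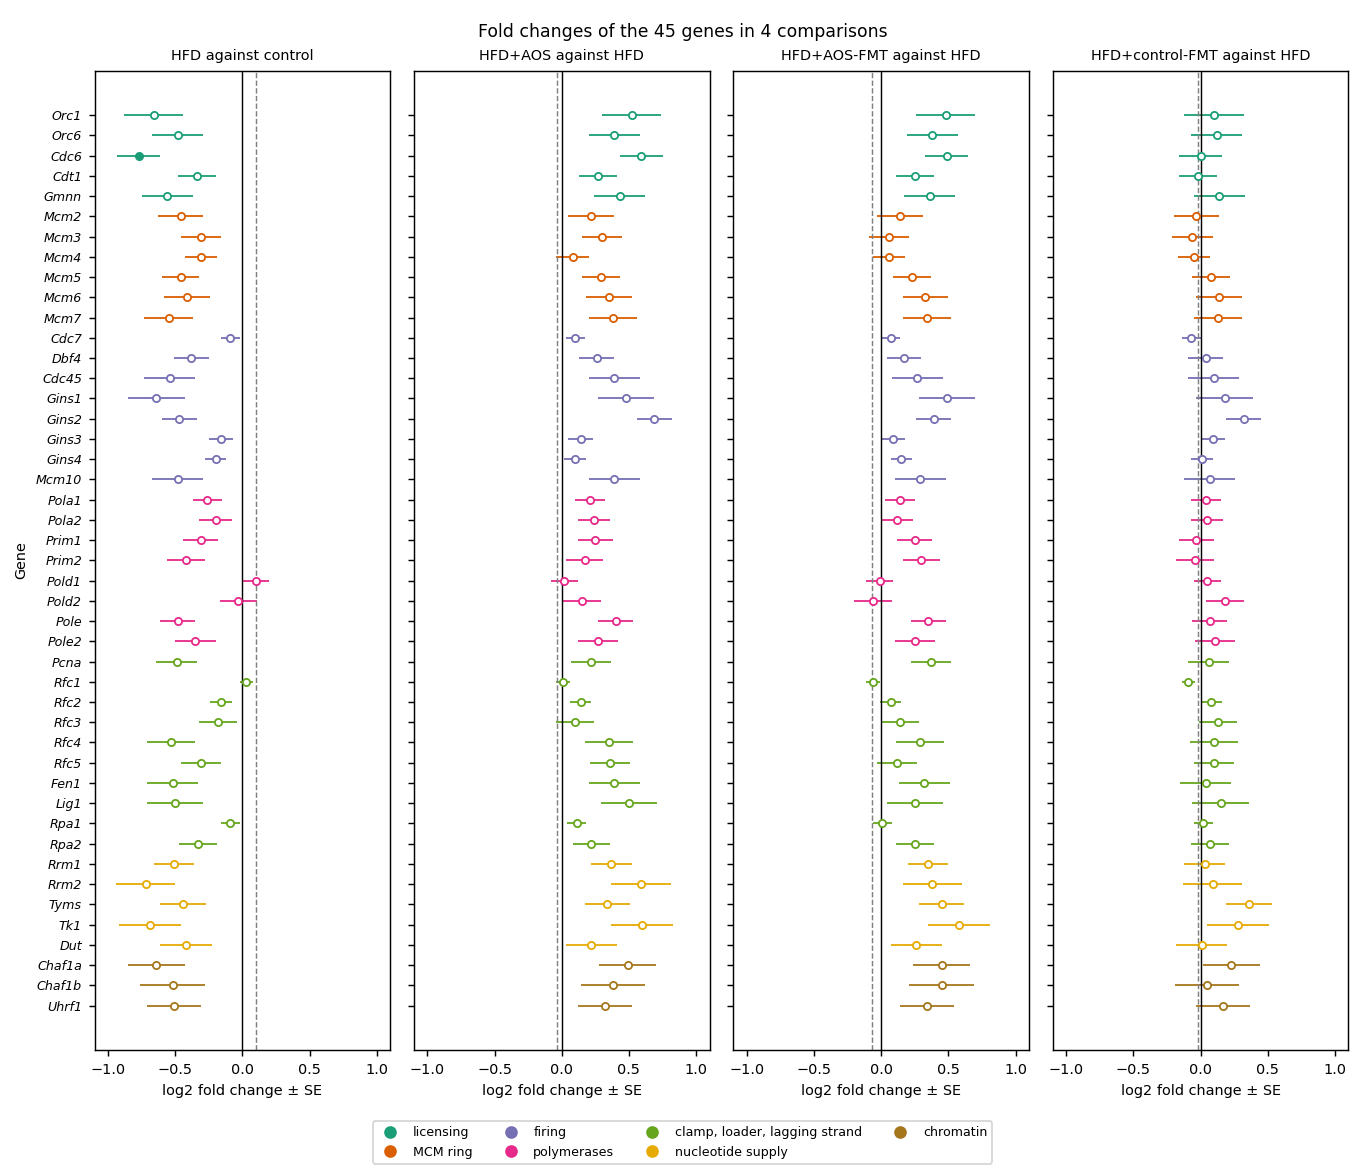
Log2 fold changes on the log2(FPKM + 1) scale (horizontal axes) with standard errors for the 45 genes (rows, coloured by role) in 4 comparisons; the filled point passed an adjusted p of 0.05 and the dashed line is the median of all genes tested. The 43 estimates below 0 for HFD against control stand beside 45, 42 and 37 above 0 for the treated groups against HFD, which share the same HFD libraries.

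The comparisons above share the 3 control or the 3 HFD libraries, so their values are not independent of each other. An F test over the 6 groups, which uses all of them at once, called 0 of the 45 when it called 0.116% of all genes (limma, smallest adjusted p = 0.0729, Cdc6). It had 9 of 45 at an unadjusted p under 0.05, against 22.0% of all genes. By group mean, control was highest for 33 genes and HFD lowest for 34, with HFD+control-FMT lowest for 9. The mean of log2(FPKM + 1) over the 45 genes was 5.07 ± 0.31 in controls, 5.0 ± 0.04 with AOS, 4.98 ± 0.27 with HFD+AOS, 4.93 ± 0.06 with HFD+AOS-FMT, 4.75 ± 0.1 with HFD+control-FMT and 4.67 ± 0.16 on HFD (SD, n = 3). Neighbours in this order differed by less than the larger of their SDs, except HFD+AOS-FMT and HFD+control-FMT.

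The highest of the 18 libraries was a median of 1.92 times the lowest over the 45 genes, against 1.5 over the 8374 tested genes in the same range of mean FPKM. It was 2.56 for the chromatin genes, 2.35 for licensing, 2.05 for nucleotide supply and 2.01 for firing, and 1.83 for the MCM ring, 1.7 for the clamp group and 1.66 for the polymerases. Single genes within a role ranged from 1.28 to 2.76 in firing and from 1.14 to 2.24 in the clamp group, and differences between roles were not tested. The ratio was at least 2 in 20 genes, led by Orc1, Rrm2 (2.85), Gins1 (2.76) and Tk1 (2.75). It was under 1.4 in 7: Rfc1 (1.14), Rpa1 (1.23), Cdc7 (1.28), Rfc2 (1.28), Gins4 (1.3), Pold1 (1.34) and Gins3 (1.36).

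Replication genes outside the 45 were also lower on HFD in 23 of 29 cases (all genes 31.5%), with a median of −0.22. The list had 1 gene called lower and 1 called higher, against 168 and 189 of the 12969 genes tested. Atad5, which unloads the clamp, fell by 0.64 on the log2 scale (± 0.15 SE, limma, adjusted p = 0.0452), from 14.4, 9.82 and 9.32 FPKM in controls to 8.02, 5.43 and 6.79. Pold4, the smallest subunit of polymerase delta, rose by 0.49 (± 0.11 SE, limma, adjusted p = 0.0448), from 92.02, 110.99 and 120.31 FPKM to 130.45, 168.01 and 156.25. With HFD+control-FMT against control Atad5 (−0.56) and the delta subunit gene Pold3 (−0.21) fell and Pold4 (0.43) rose, and 1 further gene of the 29, Orc2, was called lower (−0.24). These calls held in 9 of 25 alternatives for Atad5, 12 for Pold3, 12 for Pold4 and 9 for Orc2 (limma, adjusted p up to 0.224, 0.285, 0.225 and 0.289). None of the list passed in AOS against control or in a treated group against HFD. In these comparisons 0 of all genes tested passed, except 2 in HFD+control-FMT against HFD, so this tells nothing particular about the list.

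Nucleotide synthesis genes outside the 45, 30 genes of synthesis, salvage and breakdown, had a median of 0.01 on HFD, with 15 lower and 15 higher. Those called were both higher. Tk2, the mitochondrial thymidine kinase, rose from 27.16, 28.23 and 31.46 FPKM to 39.18, 40.56 and 35.24 (0.39 ± 0.07 SE, limma, adjusted p = 0.0443), whereas the cytosolic S-phase kinase Tk1 had an estimate of −0.69. Samhd1, which breaks down deoxynucleotides, rose from 90.34, 104.12 and 115.68 FPKM to 134.51, 148.5 and 146.11 (0.47 ± 0.11 SE, limma, adjusted p = 0.045). Both were above every control library in every HFD library. Tk2 also rose in HFD+AOS against control (0.34, limma, adjusted p = 0.0293), as did Impdh1 of guanine nucleotide synthesis (0.33, limma, adjusted p = 0.0321) and Samhd1 (0.43, limma, adjusted p = 0.0482). Over 25 alternatives these calls held in 18 for Tk2, 19 for Impdh1 and 7 for Samhd1. With HFD+control-FMT Impdh1 rose (0.28) and the folate enzyme gene Mthfd1 fell (−0.38) against control, calls that held in 10 and 14 of 25 alternatives (limma, adjusted p up to 0.273 and 0.224).

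Of 32 regulators of the G1 to S step 24 were lower on HFD, with a median of −0.25, and 4 fell. Of all genes tested, 31.5% were lower on HFD and 1.30% were called lower, and 1.94% were called lower with HFD+control-FMT. Ccne2, a cyclin E that drives S-phase entry, went from 28.11, 21.0 and 19.59 FPKM to 14.11, 8.71 and 12.75 (−0.9 ± 0.18 SE, limma, adjusted p = 0.0443). Tfdp2, a partner of E2F factors, fell from 41.09, 30.89 and 30.93 to 25.87, 13.62 and 14.8 (−0.93 ± 0.2 SE, limma, adjusted p = 0.0443). With HFD+control-FMT against control, Tfdp2 (−0.88) and Rb1 (−0.37), the pocket protein gene that restrains E2F, fell. All 10 other chromatin genes were lower on HFD, and the histone chaperone gene Asf1a fell (−0.32). All 15 mitosis markers were lower too, with a median of −0.69, and Mki67 (−0.87) and Bub1b (−0.53) fell. With HFD+control-FMT, Cbx5 (−0.33), Bub1b (−0.49) and Mki67 (−0.77) fell, calls that held in 12, 10 and 10 of 25 alternatives (limma, adjusted p up to 0.238, 0.242 and 0.195), while those of Tfdp2 and Rb1 held in 21 each. In HFD against control, Tk2, Samhd1, Pold4, Atad5, Ccne2, Tfdp2, Mki67 and Bub1b each kept the call in 8 of 25 alternatives and Asf1a in 7. In that comparison 0 of all genes tested were called without the filter on low values, with median ratios, with totals free of haemoglobin or with only the groups compared. The same held without control replicate 1, AOS replicate 1 or 3, HFD replicate 2 or 3, HFD+AOS replicate 2, any HFD+AOS-FMT library, or HFD+control-FMT replicate 1 or 2.

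Markers of other cell types differed between groups too, in some comparisons alongside the 45 genes and in others not. The 15 erythroid markers summed to 2040 to 3320 FPKM in controls, 1340 to 1980 with AOS, 858 to 1890 on HFD, 1100 to 2170 with HFD+AOS, 2000 to 2090 with HFD+AOS-FMT and 1110 to 1490 with HFD+control-FMT. All 15 were lower on HFD than in controls and 8 were called, when 31.5% of all genes were lower and 1.30% were called lower. The same counts held for HFD+control-FMT, when 34.2% were lower and 1.94% were called lower. In the AOS and HFD+AOS groups all 15 were lower than in controls as well, with a median of −0.61 in each and 0 called, while the medians of the 45 genes were −0.07 and −0.1. Within HFD, replicate 1 had 1890 FPKM of erythroid markers and 18 of the 45 genes above their median, and replicates 2 and 3 had 858 and 957 and 2 genes each. The 11 neutrophil granule precursor markers summed to 6410, 1850 and 327 FPKM in control replicates 1, 2 and 3 and to 152 to 632 in all other libraries, those of AOS and HFD+AOS included. The 15 mitosis markers summed to 1590, 1170 and 801 FPKM in the 3 controls. No erythroid or granule precursor marker was at 0 in a group. The 9 plasma cell markers were all higher in HFD+AOS than on HFD (median 1.02, 0 called) and than in controls (1.3, 9 called by limma), and all higher with AOS than in controls (0.97, 0 called). In HFD+AOS against control, 234 of the 12969 genes tested were called higher. The plasma cell markers summed to 618 to 1150 FPKM in controls, 1320 to 1660 with AOS, 752 to 1230 on HFD, 1560 to 2660 with HFD+AOS, 827 to 973 with HFD+AOS-FMT and 857 to 2050 with HFD+control-FMT. Germinal centre markers summed to 70.4 to 108 FPKM in controls, 126 to 133 with AOS and 95.7 to 124 on HFD. They summed to 93.9 to 118 with HFD+AOS, 101 to 128 with HFD+AOS-FMT and 98.3 to 190 with HFD+control-FMT. Against control, 7 of these 8 markers were higher on HFD with 2 called, and 8 with HFD+control-FMT with 3 called. In the latter comparison 414 of the 12969 genes tested were called higher. With AOS 8 were higher than in controls and with HFD+AOS and HFD+AOS-FMT 7 each, 0 of them called. On HFD against control, T cell markers were higher in 8 of 8 with 4 called, and B cell markers in 8 of 8 with 0 called. In that comparison 31.5% of all genes had estimates below 0, and 189 of the 12969 tested were called higher. Testis markers summed to 259 FPKM in control replicate 2 and 13.2 at most outside controls, and pancreas markers reached 11900 in HFD+AOS replicate 2. The part of any of these in the values of the 45 genes was not tested.

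**Figure D4:**
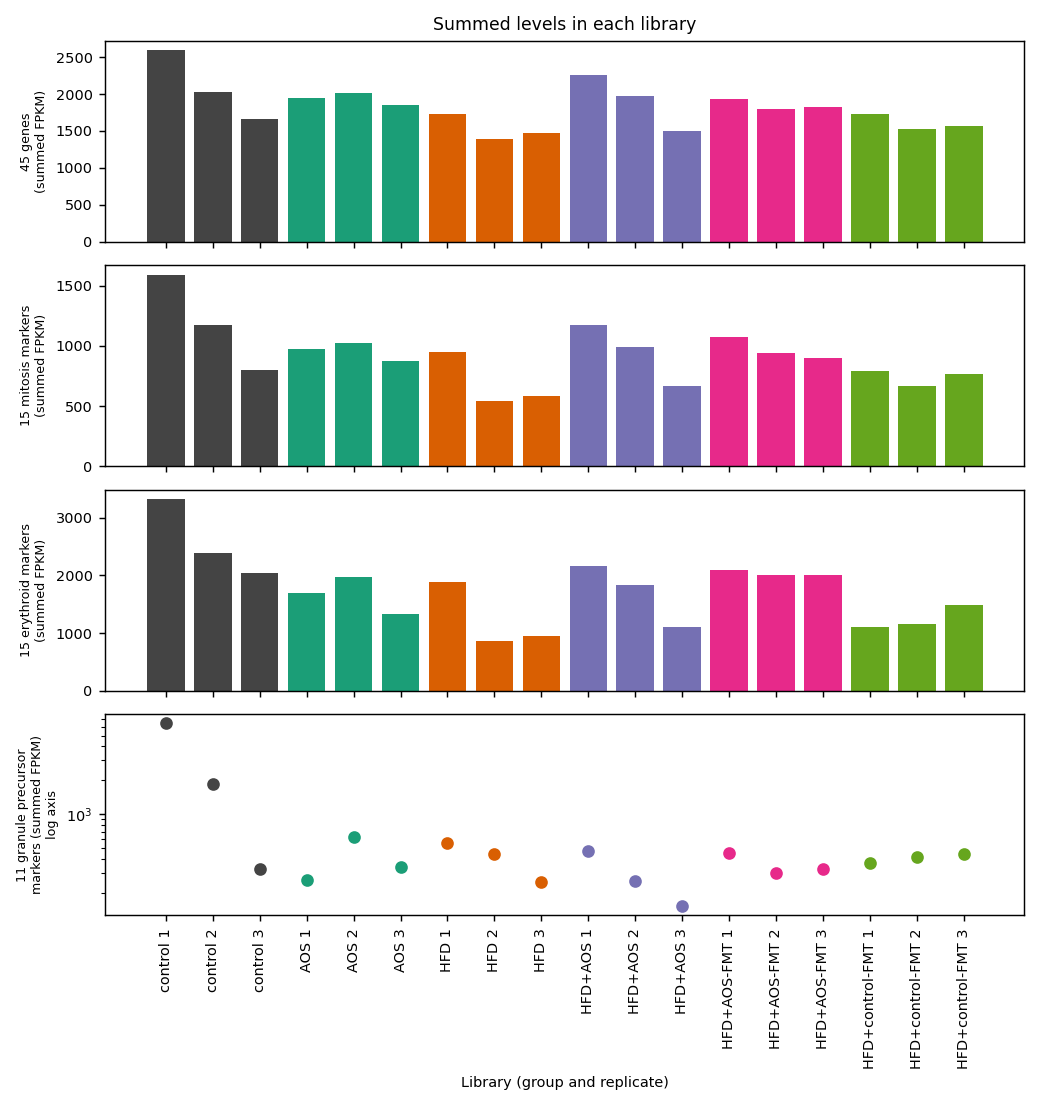
Summed FPKM in each of the 18 libraries (horizontal axis, coloured by group) of the 45 genes, 15 mitosis markers and 15 erythroid markers (bars from 0) and of 11 granule precursor markers (points, log axis). Control replicate 1 is highest in all 4 panels, and HFD replicate 2 is lowest in the upper 3.

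Exons of 15 of the 45 genes overlap those of a neighbour in GENCODE, as Mcm7 does with Ap4m1 and Cops6, Cdc45 with Ufd1 and Tk1 with Afmid, and Pcna and Tyms have named pseudogenes. Whether reads were counted by strand is not given in the sources used here, so these values may include reads of the other gene.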

How the data were processed

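Spleen RNA of 18 mouse libraries was sequenced, 3 in each of 6 groups. Per the submitters' processing notes, reads were aligned with Bowtie 0.12.2 to mm10. The authors deposited a table of 19326 gene symbols by 18 columns, read here as FPKM (or RPKM), since value times transcript length summed alike over libraries (coefficient of variation 0.79%, against 7.55% for plain totals, over the 97.1% of rows with a length). For the counting program and annotation, the sources used here name none. Absolute depth is unknown, so single values carry no counting error.

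Values were analysed as log2(FPKM + 1), so that fold changes of low genes are understated. A gene was tested where any group averaged 1 FPKM or more, which kept 12969 genes and all 45 described here. One limma 3.58.1 fit (trend, robust; statmod 1.5.0, R 4.3.3) covered all 18 libraries. P-values are two-sided and adjusted by Benjamini and Hochberg over all genes tested within each comparison, at 0.05. "Groups not overlapping" means that every library of one group lies beyond every library of the other.

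The 45 genes and all lists were chosen with earlier results of these data known, so lists carry no test. Values in every library are given for genes past the adjusted p and, in each role, for those with the smallest p in HFD against control, the highest mean and the smallest p in the F test, and for genes against their role. From other lists at most 2 called genes in each direction and comparison are named. Further genes were named after their values were seen. Deviations from group means correlated above 0.1 for every replicate number only between HFD+AOS and HFD (0.24, 0.27 and 0.19, numbers taken from the titles). The block therefore stands beside that comparison. Promoter windows came from RefSeq (GRCm38.p6) and gene positions from GENCODE on GRCm38, the same assembly as mm10. No window was at hand for Gins1, Gins2, Gins4, Gmnn, Mcm4, Pole, Prim2 and Rfc2. Alternatives were a pseudocount of 0.1, no filter, a mean of at least 5 FPKM, median ratios, totals without haemoglobin, only the groups compared, the replicate block and leaving out each library. The fit was tested on simulated data. Plots were drawn with matplotlib 3.10.9, and tables were made with pandas 2.3.3 on numpy 2.4.6 (Python 3.11.15).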

Additional observations from a re-analysis of the deposited data

How the results depend on the processing

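The median over the 45 genes kept its direction under every alternative in HFD against control (−0.58 to −0.26), HFD+control-FMT against control (−0.53 to −0.19), HFD+AOS against HFD (0.17 to 0.46), HFD+AOS-FMT against HFD (0.21 to 0.35), HFD+AOS-FMT against HFD+control-FMT (0.14 to 0.24), HFD+control-FMT against HFD (0.02 to 0.13) and the interaction (0.22 to 0.54). It changed sign without control replicate 1, and in HFD+AOS also without HFD+AOS replicate 3 (0.04), in AOS (−0.26 to 0.08), HFD+AOS (−0.28 to 0.07) and HFD+AOS-FMT (−0.32 to 0.02) against control.

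The number of the 45 called was far less stable, and the cause was not tested. In HFD against control it was 1. It was 0, as for all genes, without the filter (where more genes were tested) and with median ratios. The same held with totals without haemoglobin and with only the groups compared (fewer libraries). It was 2 at a mean of at least 5 FPKM, when 283 of 9949 genes tested were called lower. With the replicate block it was 25, when 694 of 12969 were called lower. Leaving out each library gave 0 to 36, the last without control replicate 3, when 1289 of 13038 were called lower. In HFD+control-FMT against control it was 1, and 0 with only the groups compared (1 of 12806 genes tested called lower). With the replicate block it was 15 (575 of 12969). Leaving out each library gave 0 to 28, the last without control replicate 3 (1133 of 13038). It was 2 without HFD replicate 1 (357 of 12981) and 3 without HFD+AOS replicate 3 (321 of 12964). In HFD+AOS against HFD it was 0, with 1 under the replicate block (13 of 12969 genes called higher). Leaving out each library gave 0 to 1 there (8 of 13008 called higher without control replicate 1, 5 of 12964 without HFD+AOS replicate 3). The F test gave 0, with 2 under the replicate block (210 of 12969 genes called). Leaving out each library, it gave 0 to 3, the last without control replicate 3 (1060 of 13038). The block changed no call of the 45 in the other comparisons. Same-numbered libraries of HFD and control had correlations of 0.15, 0.04 and 0.36. These values do not decide whether the numbers pair the libraries. With HFD+control-FMT against control, calls over all genes split into 414 higher and 251 lower, and into 175 and 203 with median ratios.

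Counts of genes whose groups did not overlap were also taken under settings chosen after seeing the data. With median ratios, the count went from 4 to 1 in HFD+AOS against HFD (all genes 8.05%), and the single lower gene was 0 in HFD+AOS-FMT against HFD (9.78%) and 0 in HFD+AOS-FMT against control (7.29%). With totals without haemoglobin, it went from 0 to 1 lower in AOS against control (all genes 8.14%), from 1 to 0 lower in HFD+AOS-FMT against HFD (15.8%), from 1 to 2 lower in HFD+AOS-FMT against control (7.6%) and from 14 to 22 lower in HFD+control-FMT against control (10.2%). Without control replicate 1 and without control replicate 3, the lower counts against control were 10 and 40 on HFD (all genes 7.38% and 15.7%), 14 and 36 in HFD+control-FMT (11% and 15.9%), 0 and 22 in AOS (11.4% and 13.3%), 0 and 5 in HFD+AOS (9.31% and 12.2%) and 1 and 28 in HFD+AOS-FMT (10.9% and 16.5%). The higher counts were 2 and 0 (16.1% and 36.2%), 0 and 0 (17.6% and 36.8%), 9 and 0 (15.9% and 30%), 2 and 0 (15.4% and 25.6%) and 1 and 0 (9.18% and 26.8%) in the same order. Dropping a library leaves 2 against 3, which separate more easily.

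With 3 libraries a group, an exact two-sided test of a single gene cannot go below 0.1, and all calls rest on a spread pooled over groups that vary unequally. FPKM are shares, so lower haemoglobin raises other genes.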
